A study of Macaca mulatta with 2 samples.

Results

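Steps in the life of a messenger RNA, from transcription to translation, were followed through 5 genes of the rhesus macaque. POLR2A encodes the catalytic subunit of RNA polymerase II, which copies genes into precursor mRNA. U2AF2 and SNRPD2 encode splicing factors, SMG1 encodes a kinase of nonsense-mediated mRNA decay, and EIF4B encodes a factor of translation initiation. The genes were found by matching the Ensembl gene identifiers of the deposited tables to these symbols. All 5 were listed, out of 7904 genes, and they held 7 of the 9267 listed transcripts. A symbol was at hand for 724 of the 7904 genes.

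The material was total RNA from peripheral blood mononuclear cells of Macaca mulatta, the white blood cells (mainly lymphocytes and monocytes) that a density gradient separates from blood. A single RNA sample was made into 2 libraries, PBMC_LongInsert and PBMC_Regular, called LongInsert and Regular here, with 1 library each and no treatment, genotype or time to compare. The labels give no age, sex or number of animals. The comparison therefore asks how alike the abundance of these genes came out after different library preparations and instruments, and no spread between replicates was available for any difference. The shared protocol describes a standard Illumina library for one run and, for a MiSeq run, SMRT cDNA synthesis, a Nextera library and gel size selection. It is not settled which title belongs to which run, because the instrument named with each table goes against the size selection that the title LongInsert implies. Directions below refer to the titles only.

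In textbook outline, RNA polymerase II makes the precursor mRNA, and U2AF binds the end of each intron near the branch point and brings in the U2 particle of the spliceosome. Sm proteins such as the product of SNRPD2 form the ring around the small nuclear RNAs of that machine. In nonsense-mediated decay, SMG1 phosphorylates UPF1 on mRNAs whose translation stops too early, and these mRNAs are then degraded. The product of EIF4B stimulates the helicase eIF4A, which unwinds the start of mRNAs so that the small ribosomal subunit can scan them. All of these are general functions that nucleated blood cells need.

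Abundance was given as TPM, which is scaled for the length of each transcript and the total of each library, so levels of different genes can be set side by side within a library. A gene's value is the sum of its listed transcripts. The tables list 13.0% of the 1000000 TPM of a whole library for LongInsert and 15.3% for Regular, and read depth is unknown, so no counting error can be given. Of 28 markers of blood cell types, 2 matched a listed symbol. They were ITGB3, a platelet integrin, at 3.29 TPM in LongInsert, against 1.77 TPM in Regular, and HBA1, a haemoglobin gene of red cells, at 0.0093 and 0.0035 TPM. The markers of T cells, B cells, NK cells, monocytes and neutrophils were searched for but matched no listed symbol. Most listed genes had no symbol, so the labelled cell type could not be checked. In RNA from mixed cells, the number of cells that express a gene and the amount of RNA per cell cannot be told apart.

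Every one of the 5 genes had a larger TPM value in LongInsert than in Regular. POLR2A, SMG1 and U2AF2 were far apart between the libraries, SNRPD2 was just past 2-fold as deposited but not on every scaling, and EIF4B was within 2-fold. Differences were measured as log2((LongInsert + 1)/(Regular + 1)), with 1 TPM added to both values, which understates the difference of low genes. A log2 ratio of 1 or more was counted as higher. By this rule 4 of the 5 genes were higher in LongInsert and 0 were lower. Among all 1310 genes averaging at least 1 TPM, 50.8% were higher in LongInsert and 19.8% lower, and among the 365 of these with a symbol the shares were 53.7% and 9.59%. Higher in LongInsert was thus more common than lower among the 1310 genes, and 4 of 5 is too small a count to set the 5 genes apart. The shares depended on the setting. They were 42.6% higher and 22.9% lower among the 625 genes averaging at least 10 TPM. With 5 TPM added to both values of the 1310 genes they were 32.1% and 14.2%. Over all 7904 genes, most of them averaging under 1 TPM, they were 9.72% and 3.72%. The median log2 ratio was 3.01 over the 5 genes, 1.04 over the 1310 genes and 1.12 over the 365.

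**Figure D1:**
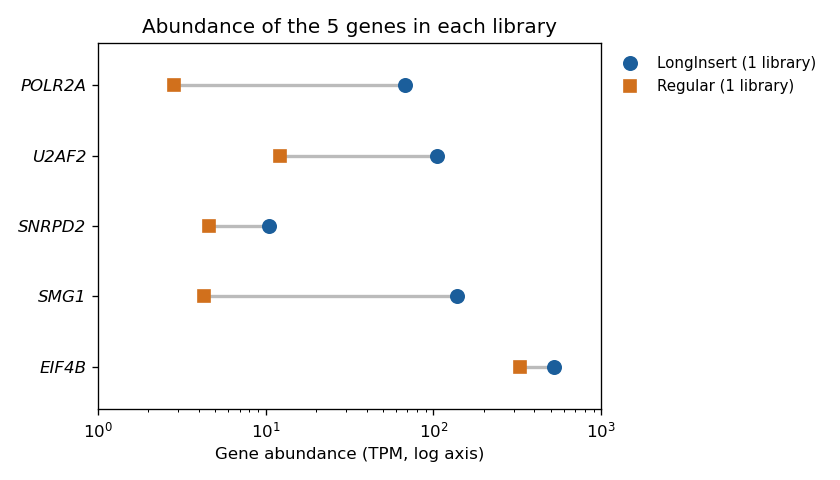
TPM of each of the 5 genes (rows) on a log axis in LongInsert (circles) and Regular (squares), 1 library each, with a grey line joining the values of a gene. The lines of POLR2A, U2AF2 and SMG1 are long, from 2.82 to 67.6 TPM for POLR2A, whereas that of EIF4B, from 327 to 519 TPM, is short.

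Transcription was represented by POLR2A (ENSMMUG00000023620), whose product also carries the C-terminal repeat domain on which capping, splicing and polyadenylation factors gather. POLR2A stood at 67.6 TPM in LongInsert, against 2.82 TPM in Regular, a ratio of 23.9 and a log2 ratio of 4.16 after the added 1 TPM. It stood at rank 211 of the 7904 genes in LongInsert and at rank 763 in Regular. In Regular it was the least abundant of the 5 genes, and in LongInsert it was above SNRPD2. Of the 1310 genes averaging at least 1 TPM, 96.3% had a lower log2 ratio than POLR2A. Among the 472 genes averaging from 10 to 100 TPM, the range to which POLR2A, U2AF2 and SMG1 belong, 91.9% had a lower one, and the median of that range was 0.90. The range is set by the mean of both libraries, and POLR2A, at 2.82 TPM in Regular, reaches it only through LongInsert. That share therefore describes the place of POLR2A and is no support for its difference. Genes averaging from 1 to 10 TPM had a median of 1.45. Only 1 transcript, ENSMMUT00000033227, was listed for this gene.

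The splicing factor U2AF2 (ENSMMUG00000004810), the large subunit of U2AF that contacts the polypyrimidine tract of introns, stood at 104 TPM in LongInsert, against 12.1 TPM in Regular. This is a ratio of 8.62 and a log2 ratio of 3.01. It was the most abundant of the 4 lower-level genes in Regular, where POLR2A, SMG1 and SNRPD2 all stood under 5 TPM. Its rank was 159 in LongInsert and 461 in Regular, and 82.0% of the genes from 10 to 100 TPM had a lower log2 ratio. The gene was represented by a single transcript, ENSMMUT00000006801.

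SNRPD2 (ENSMMUG00000032370), which encodes the Sm D2 protein of the spliceosomal particles, was low in both libraries. It stood at 10.5 TPM in LongInsert, against 4.60 TPM in Regular, a ratio of 2.27 and a log2 ratio of 1.03, next to the 2-fold limit. With 5 TPM added to both values in place of 1 it was 0.69, under the limit. Its rank hardly differed, at 645 in LongInsert and 660 in Regular. The ratio lay in the middle of the distribution, with 49.8% of the 1310 genes below it, and was under the median of 1.45 of the 685 genes from 1 to 10 TPM. The symbol SNRPD2 belongs to 2 Ensembl genes, of which 1 is listed here with 1 transcript, ENSMMUT00000047847. The other was not analysed here, and how alike the 2 are in sequence was not checked. If they are near-identical, reads can be split between them, so the level of SNRPD2 is uncertain.

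SMG1 (ENSMMUG00000022441), the decay kinase, was the furthest apart of the 5 genes. It stood at 137 TPM in LongInsert, against 4.31 TPM in Regular, a ratio of 31.9 and a log2 ratio of 4.70. Its rank was 125 in LongInsert and 673 in Regular. Among the genes from 10 to 100 TPM, 94.5% had a lower log2 ratio, although SMG1, at 4.31 TPM in Regular, reaches this range only through LongInsert. Of the 1310 genes, 4.66% reached a 16-fold difference in favour of LongInsert, as SMG1 and POLR2A did. Partial copies of SMG1 are known in the human genome, and how the quantification treated any such copies in the macaque is not given in the sources used here.

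EIF4B (ENSMMUG00000001062), which encodes the initiation factor eIF4B, was the most abundant of the 5 genes in both libraries and the closest between them. It stood at 519 TPM in LongInsert, against 327 TPM in Regular, a ratio of 1.59 and a log2 ratio of 0.67. It stood at rank 50 in LongInsert and 62 in Regular. Of the 125 genes averaging from 100 to 1000 TPM, 63.2% had a lower log2 ratio, and the median of that range was 0.07. In that range 34 genes passed the 2-fold limit in favour of LongInsert and 34 in favour of Regular, an even split that the lower ranges did not share (226 and 100 from 10 to 100 TPM, and 400 and 117 from 1 to 10 TPM).

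**Figure D2:**
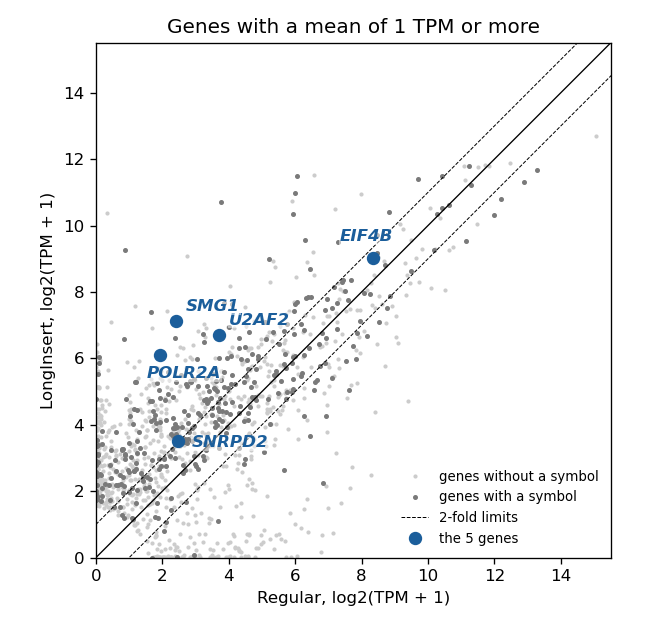
Each point is 1 of the 1310 genes averaging at least 1 TPM, with log2(TPM + 1) in Regular on the horizontal axis and in LongInsert on the vertical axis. The solid line marks equal values and the dashed lines 2-fold. EIF4B lies between the dashed lines, SNRPD2 lies on the upper one, and U2AF2, POLR2A and SMG1 lie well above it, each 8-fold or more higher in LongInsert, as are 12.8% of the 1310 genes.

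The order of the 5 genes depended on the library. In LongInsert the order from high to low was EIF4B, SMG1, U2AF2, POLR2A and SNRPD2, and in Regular it was EIF4B, U2AF2, SNRPD2, SMG1 and POLR2A. No replicate shows which neighbours in either order differ beyond error. Such comparisons within a library do not depend on how the libraries are scaled to each other. SMG1 had 13.1 times the TPM of SNRPD2 in LongInsert and 0.936 times in Regular, and POLR2A had 6.46 times the TPM of SNRPD2 in LongInsert and 0.614 times in Regular, so both pairs changed order. SMG1 and U2AF2 also changed order, at a ratio of 1.32 in LongInsert and 0.356 in Regular. EIF4B exceeded POLR2A 7.68-fold in LongInsert and 116-fold in Regular. Other pairs were steadier. EIF4B exceeded SNRPD2 49.6-fold in LongInsert and 71.0-fold in Regular, and SMG1 exceeded POLR2A 2.03-fold and 1.53-fold. The genes thus formed a pair with small differences between the libraries (EIF4B and SNRPD2) and a trio with large ones.

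The 625 genes averaging at least 10 TPM had a median log2 ratio of 0.59, although that of the 125 genes from 100 to 1000 TPM was 0.07. With this subtracted, the log2 ratios were 4.11 for SMG1, 3.57 for POLR2A, 2.41 for U2AF2, 0.44 for SNRPD2 and 0.07 for EIF4B. SNRPD2 was then within 2-fold, which left 3 of the 5 genes higher and 0 lower. Over all 1310 genes, centring changed the split from 666 higher and 260 lower to 505 and 334, or 38.5% and 25.5%. Over the 365 genes with a symbol the centred shares were 36.4% higher and 14.5% lower.

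The share of each transcript could be compared in SMG1 and EIF4B, for which 2 transcripts were listed each. In SMG1 the leading transcript, ENSMMUT00000031567, stood at 120 TPM in LongInsert, against 4.22 TPM in Regular. The minor one, ENSMMUT00000031566, stood at 17.6 TPM in LongInsert, against 0.0883 TPM in Regular. The minor transcript thus made up 12.8% of SMG1 in LongInsert and 2.05% in Regular, a difference of 10.7 percentage points. The ratio between the libraries was 28.4 for the leading transcript and 199 for the minor one, although a level as low as 0.0883 TPM rests on an unknown, possibly very small, number of reads. Both transcripts of SMG1 had the lower value in Regular.

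In EIF4B the transcript ENSMMUT00000001511 held nearly all of the gene, with 519 TPM in LongInsert, against 327 in Regular. The second transcript, ENSMMUT00000046549, stood at 0.033 TPM in LongInsert, against 0.13 TPM in Regular, or 0.00635% and 0.0397% of the gene. It was the 1 transcript of the 7 with the larger value in Regular, but both of its values are near 0. They rest on an unknown, possibly very small, number of reads, so this direction is uncertain. Against 105 genes with 2 listed transcripts averaging at least 5 TPM, in which the shares differed by a median of 5.19 points, 58.1% had a smaller difference than SMG1 and 3.81% a smaller one than EIF4B. The same transcript led in both libraries in both genes, as it did in 82.9% of those 105 genes.

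**Figure D3:**
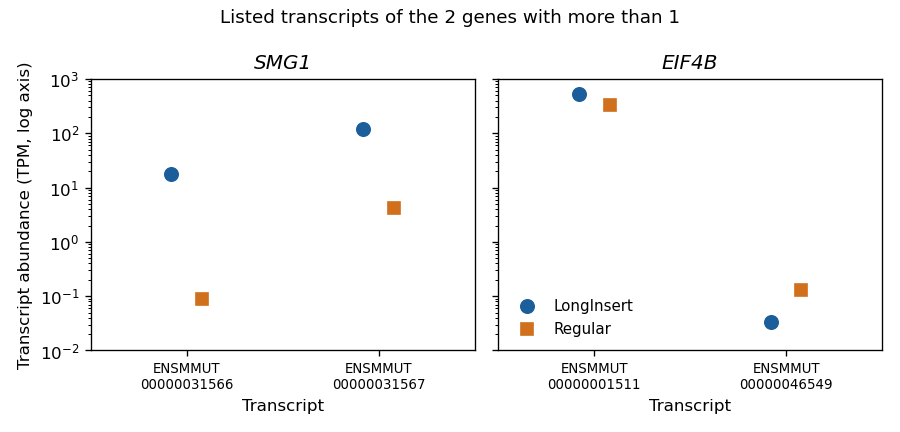
TPM on a log axis of the transcripts of SMG1 (left) and EIF4B (right) in LongInsert (circles) and Regular (squares). Both SMG1 transcripts are lower in Regular, the minor one at 0.0883 against 17.6 TPM, whereas EIF4B rests on a single transcript in both libraries.

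The wider pathways were described from 4 lists with 367 symbols, of which 14 matched a listed gene. These were the 5 genes and 9 others, and 8 of the 9 averaged at least 1 TPM. By the 2-fold rule, 5 of the 8 were higher in LongInsert, 1 was lower and 2 were within 2-fold, beside the 50.8% higher and 19.8% lower among all genes. After centring, 2 were higher, 1 was lower and 5 were within 2-fold. Their median log2 ratio was 1.18, or 0.59 after centring, against 1.04 and 0.44 over all 1310 genes. With 8 genes, this split does not set the lists apart from genes in general.

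Besides POLR2A, the transcription list held MED24, a subunit of the Mediator complex that links transcription factors to RNA polymerase II. MED24 stood at 26.0 TPM in LongInsert, against 27.3 TPM in Regular, for a log2 ratio of -0.07 against 4.16 for POLR2A. The large difference of POLR2A was thus not seen in the other listed gene of this group. Of its 2 listed transcripts, ENSMMUT00000004154 made up 20.6% of MED24 in LongInsert and 0.0923% in Regular.

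Of the splicing list, 4 of 5 genes were higher in LongInsert and 0 were lower, or 2 and 0 after centring, beside 50.8% higher and 19.8% lower among all 1310 genes, or 38.5% and 25.5% after centring. With 5 genes these counts do not set the list apart. DHX8, a helicase that releases spliced mRNA from the spliceosome, stood at 47.2 TPM in LongInsert, against 3.48 TPM in Regular, or 3.43 on the log2 scale (2.83 after centring). SNW1, a component of the active spliceosome, had 50.7 and 22.8 TPM, or 1.12 on the log2 scale (0.52 after centring). HNRNPA1, an abundant RNA-binding protein that acts on splice site choice, stood at 1472 TPM in LongInsert, against 1366 TPM in Regular, with a log2 ratio of 0.11, or -0.49 after centring. HNRNPA1 is known to have many processed copies in primate genomes, so its level is uncertain. U2AF2 and DHX8 were thus far apart between the libraries, SNRPD2 and SNW1 lay near the 2-fold limit, and HNRNPA1 was within it.

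The decay list held PNRC2 beside SMG1. PNRC2, an adaptor between UPF1 and the decapping machinery, stood at 224 TPM in LongInsert, against 78.6 TPM in Regular. Its log2 ratio of 1.50, or 0.91 after centring, was well under the 4.70 of SMG1.

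In the translation list, 2 of 4 genes were higher in LongInsert, 1 was lower and EIF4B was within 2-fold, whereas after centring 1 was higher and 1 lower. These counts are near the shares among all 1310 genes, of 50.8% higher and 19.8% lower as deposited and 38.5% and 25.5% after centring. EIF4A2, one of the eIF4A helicases that eIF4B stimulates, stood at 837 TPM in LongInsert, against 352 TPM in Regular, or 1.25 on the log2 scale (0.66 after centring). The leading transcript of EIF4A2, for which 3 were listed, was not the same in both libraries. ENSMMUT00000005245 made up 48.1% of EIF4A2 in LongInsert and 25.9% in Regular, whereas ENSMMUT00000005246 made up 17.2% and 62.0%. The third, ENSMMUT00000027941, made up 34.7% in LongInsert and 12.1% in Regular. EIF5A, a factor that helps ribosomes through sequences that are slow to translate, had 203 and 13.4 TPM, or 3.82 on the log2 scale (3.23 after centring). EEF2KMT, a methyltransferase that acts on elongation factor 2, was the 1 lower gene, with 6.08 TPM in LongInsert, against 21.1 in Regular, for a log2 ratio of -1.64. Its transcripts did not share 1 direction. ENSMMUT00000039583 was higher in LongInsert, at 4.92 TPM against 1.44 TPM in Regular, and the rest were lower. EIF6, a factor that keeps the ribosomal subunits apart, was near 0 in both libraries, at 0.0048 TPM in LongInsert, against 0.0222 TPM in Regular.

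**Figure D4:**
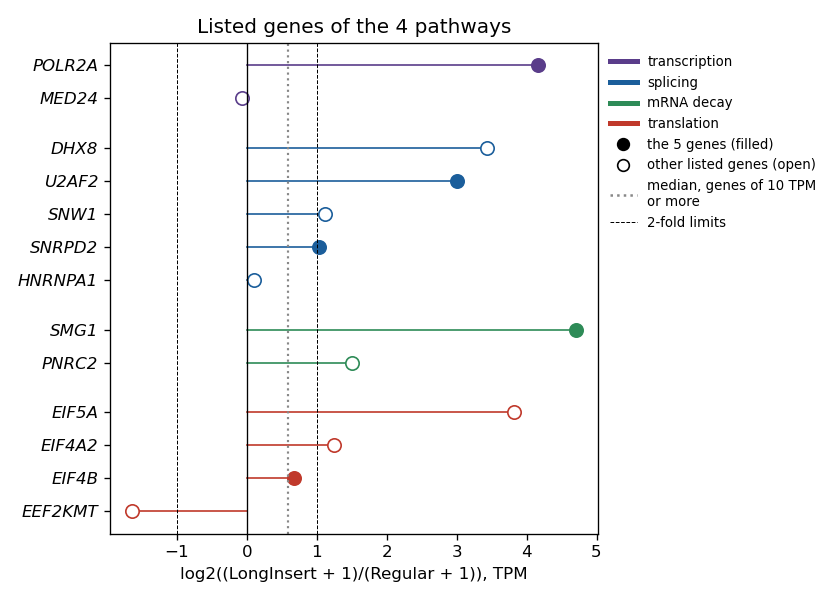
Log2 ratio of LongInsert to Regular, with 1 TPM added to both, for the 13 genes of the 4 pathway lists that averaged at least 1 TPM, coloured by list. Filled points are the 5 genes and open points the others, dashed lines mark 2-fold and the dotted line the median of 0.59. SMG1 is highest at 4.70 and EEF2KMT lowest at -1.64.

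The genes with a symbol whose pair of log2(TPM + 1) values lay nearest to each of the 5 were found by Euclidean distance over the 2 libraries. With 2 values per gene, likeness means only a similar level in both libraries. Nearest to POLR2A was DHX8 at a distance of 0.56, followed by ATP11B, a lipid flippase, with 97.7 TPM in LongInsert, against 4.23 in Regular, and by BLTP1. ATP11B was also nearest to SMG1, at 0.49, before PTP4A1 and KLC1. Nearest to U2AF2 was DOCK10, with 122 and 14.9 TPM at a distance of 0.36, followed by KLC1 and USP24. SNRPD2 lay nearest to ZNF84, with 10.2 and 4.70 TPM at a distance of 0.04, then to ALDH7A1 and MAPK6. EIF4B lay nearest to BIN2, with 580 and 355 TPM at a distance of 0.20, then to PARP6 and to EIF4A2, itself a translation factor, at 0.70.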

How the data were processed

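For each library the authors deposited a table that gives each transcript a TPM value, per the file headers. CASAVA 1.8.2, Trimmomatic and STAR are named without role or order, per the submitters' processing notes, and the series title names Isolator, an isoform quantification program. Not given in the sources used here are the genome build, annotation and quantification settings. No listed value was 0. Groups came from the sample titles. TPM was summed per gene, and log2 ratios used a pseudocount of 1 TPM and a 2-fold limit, in Python 3.11.15 with pandas 2.3.3. With 1 library per group no test was made. The 5 genes and the pathway lists were chosen with earlier results of these data known. Named genes are the 5, all list genes averaging at least 1 TPM, and the 3 nearest genes to each of the 5; EIF6, HBA1 and ITGB3 were added. Alternatives were other pseudocounts, scalings and minimum means. No sequence of these genes was used here.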

Additional observations from a re-analysis of the deposited data

How the results depend on the processing

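All 5 genes kept a larger value in LongInsert under the 6 alternatives tried for each, but not every alternative could change the direction. Another pseudocount keeps the sign, and rescaling to equal sums of all listed genes raises every ratio. For POLR2A, U2AF2 and SNRPD2, with 1 listed transcript each, the most abundant transcript repeats the gene value. In EIF4B the leading transcript holds nearly all of the gene and so nearly repeats its value. In SMG1 the leading transcript was picked by its value in LongInsert, where the gene stood at 137 TPM, against 4.31 TPM in Regular. Its direction could therefore not change either. The direction was thus open only to centring and the rescaling without the 10 most abundant genes. The log2 ratio ran from 3.94 to 4.96 for SMG1, from 3.21 to 4.53 for POLR2A, from 2.41 to 3.22 for U2AF2 and from 0.07 to 0.90 for EIF4B, so that each stayed on its side of the 2-fold limit. SNRPD2 did not. Its log2 ratio of 1.03 was 0.69 with a pseudocount of 5 TPM, 0.44 after centring and 0.78 with TPM rescaled to equal sums without the 10 most abundant genes. Of the 8 pathway genes other than the 5 described, 5 were higher in LongInsert as deposited, 2 after centring and 3 with that rescaling. Both alternatives lower every ratio, and among all 1310 genes the shares higher were 50.8%, 38.5% and 47.2% in the same order. With 8 genes, these counts do not set the lists apart. Of 60 recomputed values, 55 kept their direction and side of the limit or, for counts, stayed within 1.5 times and, for transcript shares, moved by less than 1 percentage point. The latter include EIF4B, whose second transcript is left out at a minimum mean of 0.1 TPM, so that its difference in share is then 0 points. Some of the 55 could not differ, so the tally overstates stability. Among these are the most abundant transcript of genes with 1 listed and the counts of the 5 genes with no minimum. The SMG1 share is another, because both of its transcripts average at least 0.1 TPM. No paired analysis was possible because the design holds a single pair of libraries. No replicate could be left out, and depth is unknown, so the low values in Regular cannot be told from too few reads.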
